A study of Homo sapiens with 6 samples.

Results

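The genes described here code for the respiratory chain and the ATP synthase, complexes I to V of the inner mitochondrial membrane. They were taken from the deposited table of gene expression by symbol: the NDUFA, NDUFB, NDUFC, NDUFS and NDUFV genes of complex I, SDHA to SDHD of complex II, CYC1 and the UQCR genes of complex III, the COX4 to COX8 genes of complex IV, the ATP5 genes of complex V, and the mitochondrial MT-ND, MT-CYB, MT-CO and MT-ATP genes. This gave 103 of 20289 genes, of which 90 lie in nuclear DNA and 13 in mitochondrial DNA. Complex I has 44 of them, complex II has 4, complex III has 11, and complexes IV and V have 22 each, with NDUFA4 and NDUFA4L2 placed in complex IV, where the NDUFA4 protein is now known to belong. RNA was sequenced from 6 libraries labelled as T24, an established human bladder cancer line, cultured with serum in RPMI medium. All 6 came from cells transfected by lipofection with a pcDNA3.1 plasmid. Under the LINC00665 label, 3 libraries carried a plasmid that overexpresses LINC00665, a long non-coding RNA, and under the Vector label 3 libraries carried the plasmid without it, from 3 experiments stated to be independent. LINC00665 itself was not analysed here.

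The respiratory chain passes electrons from NADH, through complex I, and from succinate, through complex II, to ubiquinone and then by way of complex III and cytochrome c to complex IV, which reduces oxygen. Complexes I, III and IV pump protons across the inner membrane, and complex V uses the proton gradient to make ATP. Mitochondrial DNA codes for the hydrophobic core subunits of complexes I, III, IV and V, its genes are transcribed as long polycistronic RNAs that are cut into single mRNAs, and all other subunits, complex II included, are coded in the nucleus and imported.

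The libraries held between 19114096 and 22725687 expected counts under the LINC00665 label and between 17289788 and 20023417 under the Vector label. A check for mixed-up samples found that 3 of the 6 libraries did not match the labelled line, so the line and the plasmid cannot be told apart, and every direction given here is between libraries labelled LINC00665 and libraries labelled Vector. Marker levels moved with the labels. Of the urothelial and epithelial markers, 14 of the 15 tested were higher under the LINC00665 label and 0 were lower (edgeR; 0 also at an unadjusted p under 0.05, and 0 by DESeq2), with a summed level of 10449.5 to 12468 counts per 1000000 (CPM) there and 1026 to 3191 CPM under the Vector label, where KRT14, KRT20, UPK3A and GRHL2 had 0 counts (KRT20 also under the LINC00665 label). Of 7 kidney tubule markers tested, 2 were higher and 5 lower, with sums of 46.0 to 49.5 CPM against 386 to 549 CPM under the Vector label. Here CDH16 had 0 counts under the LINC00665 label and EMX2 had 0 under the Vector label. The fibroblast list (5 of 6 tested higher, 243 to 270 against 2.07 to 4.10 CPM, DCN and FAP at 0 under the Vector label) and the list of leukocyte and endothelial genes (6 of 6 tested higher, 110 to 169 against 0.653 to 1.83 CPM) had larger sums under the LINC00665 label. Marker genes near 0 under the Vector label passed the filter on low counts through the LINC00665 libraries. Kidney tubule markers near 0 under the LINC00665 label passed it through the Vector libraries. The counts of markers higher or lower are therefore a description. In the last list CSF1R, CD3E, VWF and KDR had 0 counts under the Vector label, and PTPRC had 0 under the LINC00665 label. Their part in the results was not tested.

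Of the 13552 genes tested in the whole table, 63.5% passed an adjusted p of 0.05 (edgeR quasi-likelihood test, Benjamini-Hochberg adjustment), 34.2% as higher and 29.3% as lower under the LINC00665 label. That balance depends on the scaling: 4634 genes were higher and 3977 lower here, against 4174 higher and 4770 lower with total-count scaling and 4257 higher and 4402 lower by limma-trend on FPKM. Of the 103 genes of complexes I to V, 95 had enough counts to be tested, 7 were higher, 47 were lower and 41 did not pass. The 82 nuclear-coded members tested had 5 higher (6.10%, against 34.2% of all genes) and 41 lower (against 29.3% of all genes), with a median log2 fold change of -0.43, beside 0.03 over all genes tested. The 13 mitochondrial-coded members had 2 higher (15.4%) and 6 lower (46.2%), with a median of -0.48, or -0.31 without the second LINC00665 library. Most of these differences were small: 9 nuclear-coded members were lower by at least 1 on the log2 scale, where 15.9% of all genes were lower by that much, and only COX6B2 was higher by that much, where 26.1% of all genes were. COX6B2 passed the filter on low counts through the LINC00665 libraries, so its place among the higher members is a description. In bulk RNA, a lower level in each cell and fewer cells that carry a transcript cannot be told apart.

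**Figure D1:**
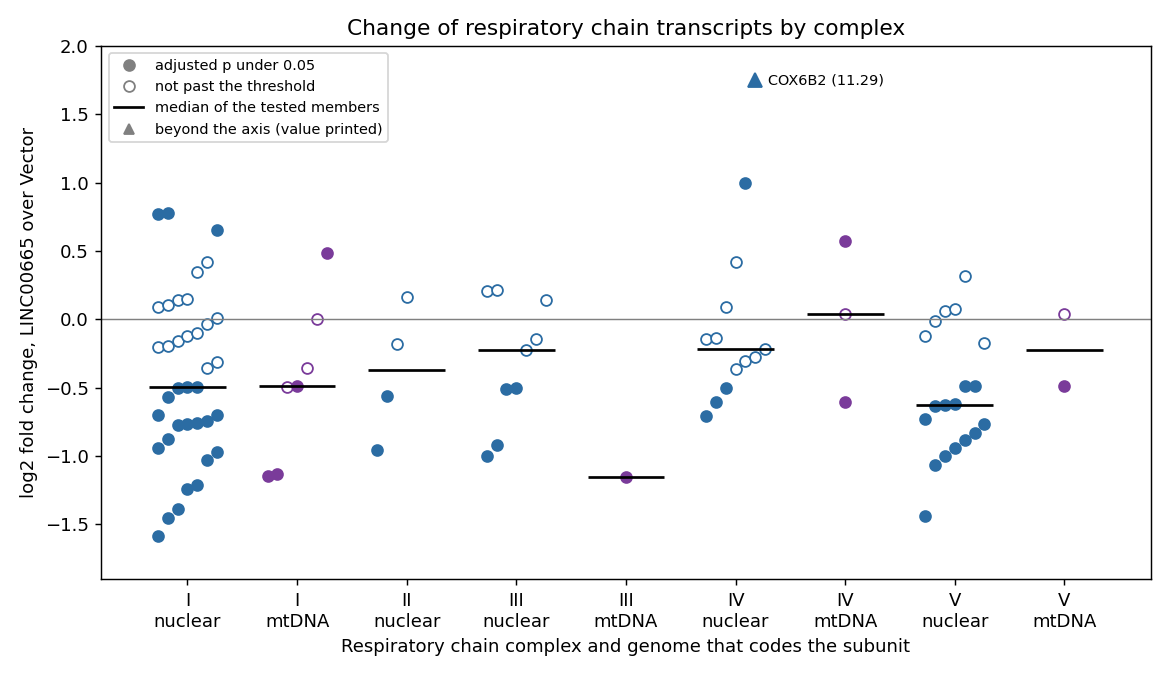
Each point is a tested gene of complexes I to V, placed by complex and by the genome that codes it, with its log2 fold change (LINC00665 over Vector) on the y axis, filled where the adjusted p was under 0.05, and each bar is a median. Complex V has 13 filled points below 0 and none above it, while nuclear-coded complex I has 19 below and 3 above, and COX6B2, absent under the Vector label, lies beyond the axis.

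In the nuclear-coded part of complex V 13 of 19 members were lower and 0 higher, with a median log2 fold change of -0.63. Over all genes 29.3% were lower and 34.2% higher. In complex I 19 of 37 were lower and 3 higher (median -0.49), in complex II 2 of 4 were lower and 0 higher (-0.37), in complex III 4 of 9 were lower and 0 higher (-0.22), and in complex IV 3 of 13 were lower, 23.1% and so under the share over all genes, and 2 higher (-0.22). By limma-trend on FPKM 8 members of complex IV, 6 of complex III and 22 of complex I were lower. For complexes II, III and V the count of 0 higher in edgeR was also 0 at an unadjusted p under 0.05, by DESeq2 and by limma-trend. Differences between complexes were not tested.

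Summed over its genes, nuclear-coded complex V had 1802, 2107 and 1759 CPM in the libraries labelled LINC00665, against 2900, 2754 and 2809 CPM in those labelled Vector, a ratio of 0.670. Nuclear-coded complex I summed to 1740 ± 184 CPM under the LINC00665 label and 2243 ± 70.4 CPM under the Vector label (SD, n = 3 each). In both complexes every LINC00665 library lay below every Vector library. Complex II averaged 469 ± 45.4 CPM under the LINC00665 label and 562 ± 45.9 CPM under the Vector label (SD, n = 3 each), where the nearest libraries, at 521.2 and 521.5 CPM, all but touched. The sums overlapped for complex III, at 867 ± 88.7 CPM under the LINC00665 label and 1006 ± 47.1 CPM under the Vector label, and for nuclear-coded complex IV, at 1307 ± 141 CPM under the LINC00665 label and 1275 ± 104 CPM under the Vector label (SD, n = 3 each). The complex IV sum holds COX6A1, which rose and by itself made up 23.4 to 26.3% of that sum under the LINC00665 label, against 11.6 to 13.5% under the Vector label.

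**Figure D2:**
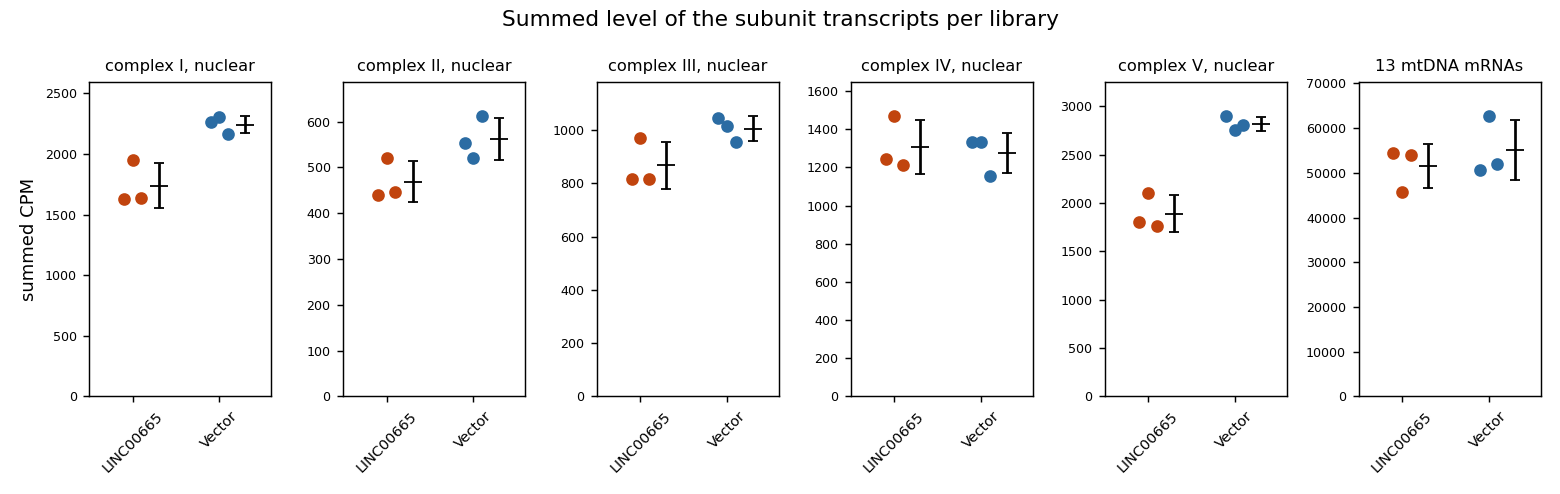
Points are libraries, with the summed CPM of the nuclear-coded genes of each complex and of the 13 mitochondrial mRNAs on the y axis of each panel, and the bar beside them is the mean ± SD (n = 3). The groups stand clear of each other in complexes I and V, meet in complex II, and overlap in complexes III and IV and in the mitochondrial mRNAs.

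The nuclear-coded core subunits of complex I, those shared with the bacterial enzyme, split in both directions: NDUFV1, NDUFS7 and NDUFS8 were higher, NDUFV2 and NDUFS1 were lower, and NDUFS3 did not pass. NDUFV1, which binds NADH and the flavin FMN, had 211, 250 and 207 CPM under the LINC00665 label and 131, 126 and 134 CPM under the Vector label. Its partner in the NADH-oxidising tip, the iron-sulphur protein NDUFV2, went the other way, with 41.6, 45.1 and 34.7 CPM under the LINC00665 label and 84.4, 69.6 and 94.2 CPM under the Vector label. NDUFS1, the large iron-sulphur subunit of the same arm, had 78.1, 66.8 and 73.4 CPM under the LINC00665 label and 178, 190 and 203 CPM under the Vector label. In none of these genes did the groups overlap. The log2 fold changes were 0.77 ± 0.14 for NDUFV1 (adjusted p = 0.0014), -1.03 ± 0.17 for NDUFV2 (adjusted p = 0.00098) and -1.39 ± 0.14 for NDUFS1 (adjusted p = 5.6e-05, edgeR, SE). The count of NDUFV1 over that of NDUFV2 was therefore 5.07, 5.53 and 5.98 in the LINC00665 libraries and 1.55, 1.81 and 1.43 in the Vector libraries, and NDUFV1 over NDUFS1 was 2.70, 3.74 and 2.82 under the LINC00665 label and 0.737, 0.663 and 0.661 under the Vector label.

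In the arm that hands electrons to ubiquinone, NDUFS7 and NDUFS8 rose. NDUFS7, which carries the last iron-sulphur cluster before ubiquinone, had 54.3, 62.5 and 53.6 CPM under the LINC00665 label and 37.7, 38.0 and 32.7 CPM under the Vector label. NDUFS8, which carries the pair of clusters before it, had 84.8, 105 and 88.8 CPM under the LINC00665 label and 56.8, 59.0 and 46.4 CPM under the Vector label. Every LINC00665 library was above every Vector library in both. The log2 fold changes were 0.65 ± 0.14 for NDUFS7 (adjusted p = 0.0044) and 0.78 ± 0.16 for NDUFS8 (adjusted p = 0.0028, edgeR, SE). NDUFS3, another subunit of this arm, had 46.6, 64.1 and 50.7 CPM under the LINC00665 label and 49.98, 45.1 and 56.7 CPM under the Vector label, with an adjusted p of 0.68.

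**Figure D3:**
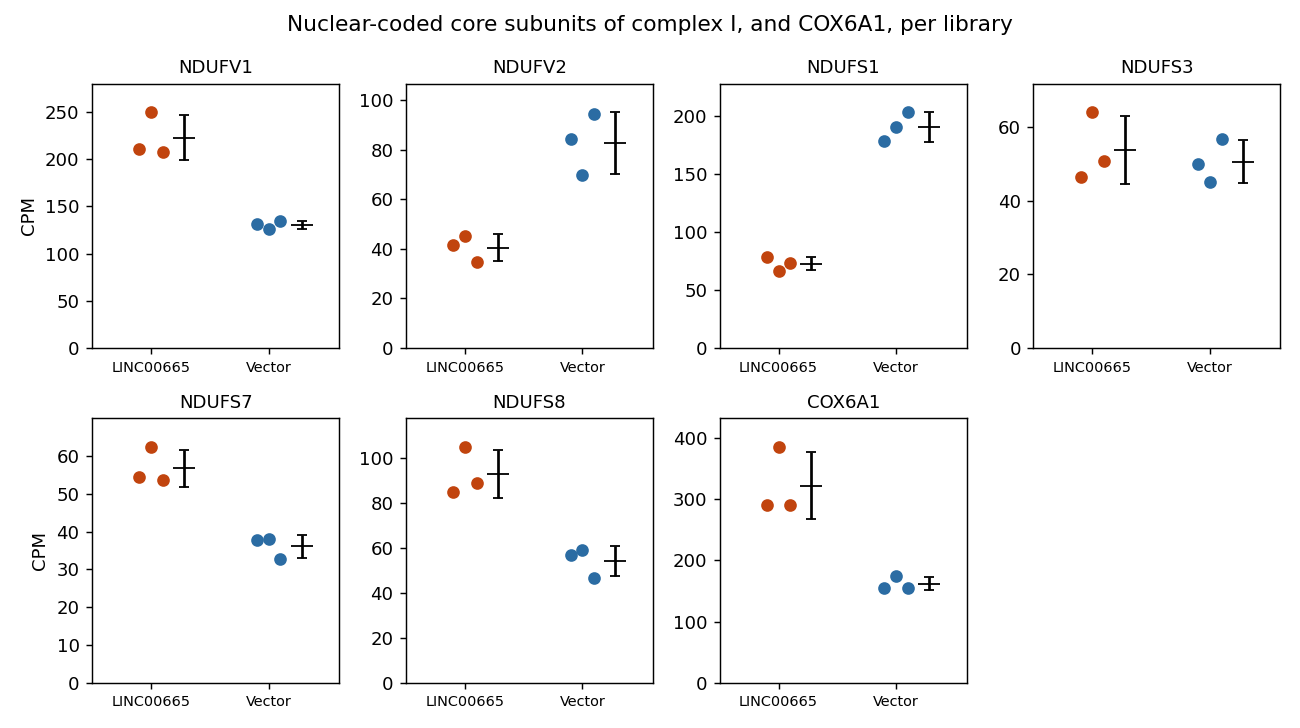
Points give the CPM of each library for 6 nuclear-coded core subunits of complex I and for COX6A1 of complex IV, with bars for the mean ± SD (n = 3). NDUFV1, NDUFS7, NDUFS8 and COX6A1 lie higher in the LINC00665 libraries, NDUFV2 and NDUFS1 lie lower, and NDUFS3 overlaps.

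The accessory subunits of complex I, which surround the core and are needed for assembly and stability, passed the threshold in 1 direction only. Of 29 tested, 16 were lower (55.2%) and 0 higher by edgeR, with a median of -0.49. Over all genes 29.3% were lower and 34.2% higher. The count of 0 higher was the same at an unadjusted p under 0.05, by DESeq2 and by limma-trend. NDUFC1, a small subunit of the membrane arm, had 8.14, 9.51 and 7.65 CPM under the LINC00665 label and 27.7, 24.8 and 23.2 CPM under the Vector label. NDUFB2, of the distal part of the membrane arm, had 18.5, 25.1 and 17.3 CPM under the LINC00665 label and 55.0, 57.0 and 54.7 CPM under the Vector label. Every LINC00665 library was below every Vector library in both, with log2 fold changes of -1.58 ± 0.17 (adjusted p = 8.7e-05) for NDUFC1 and -1.45 ± 0.18 (adjusted p = 0.00016) for NDUFB2 (edgeR, SE). NDUFA6, an LYR-motif protein of the matrix arm, had 26.5, 35.1 and 31.4 CPM under the LINC00665 label and 64.5, 81.0 and 74.1 CPM under the Vector label (log2 fold change -1.24 ± 0.17, adjusted p = 0.00029, edgeR). NDUFB3 was the only other accessory subunit lower by at least 1, at -1.21 (adjusted p = 0.00043). The 13 accessory subunits that did not pass ranged from NDUFA3, at -0.36, to NDUFB11, at 0.42. Among them NDUFA7 was above the Vector range in every LINC00665 library (0.35, adjusted p = 0.099), and NDUFA12 was below it (-0.16, adjusted p = 0.38, edgeR). NDUFB11 had 67.5, 92.0 and 69.0 CPM under the LINC00665 label and 64.1, 68.7 and 38.0 CPM under the Vector label, so its value rests on the third Vector library, which was low, and without it the log2 fold change was 0.20. Of the 16 lower, NDUFA1, NDUFA10, NDUFB5, NDUFS4 and NDUFV3 lost the call without the third LINC00665 library (adjusted p from 0.060 to 0.12), and all of them but NDUFB5 also without another library. NDUFC1 and NDUFB2 overlap other annotated genes and have expected counts that are not whole, so some of their reads may be shared.

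Complex II oxidises succinate to fumarate and belongs to the citric acid cycle as well as to the chain. SDHC, a membrane anchor that binds haem and ubiquinone, had 75.7, 91.5 and 73.4 CPM under the LINC00665 label and 150, 155 and 161 CPM under the Vector label. SDHB, the iron-sulphur subunit, had 78.4, 89.5 and 81.9 CPM under the LINC00665 label and 124, 106 and 137 CPM under the Vector label. Both were below the Vector libraries throughout, with log2 fold changes of -0.96 ± 0.14 for SDHC (adjusted p = 0.00055) and -0.56 ± 0.15 for SDHB (adjusted p = 0.011, edgeR, SE). SDHA, the flavin subunit at which succinate is oxidised, had 235, 287 and 244 CPM under the LINC00665 label and 210, 216 and 256 CPM under the Vector label. SDHD, the other anchor, had 49.4, 53.0 and 48.1 CPM under the LINC00665 label and 68.9, 44.1 and 57.6 CPM under the Vector label. The groups overlapped for both, with adjusted p of 0.36 for SDHA and 0.41 for SDHD. SDHB passed narrowly and did not pass without the first LINC00665 library (adjusted p = 0.058). The count of SDHA over that of SDHC was 3.11, 3.14 and 3.32 in the LINC00665 libraries and 1.40, 1.39 and 1.59 in the Vector libraries. These RNA counts are not scaled for length and do not give the numbers of the 4 proteins, which assemble in equal numbers. Per length, SDHA stood at 101 FPKM and SDHC at 74.9 FPKM under the LINC00665 label. Under the Vector label they stood at 98.4 FPKM (SDHA) and 151 FPKM (SDHC).

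In complex III the members with redox centres were lower and the large core proteins did not pass. CYC1, cytochrome c1, had 121, 155 and 125 CPM under the LINC00665 label and 193, 172 and 204 CPM under the Vector label. UQCRFS1, the Rieske iron-sulphur protein, had 73.8, 90.2 and 72.0 CPM under the LINC00665 label and 108, 106 and 123 CPM under the Vector label. Neither gene's groups overlapped, and their log2 fold changes were -0.50 ± 0.15 (CYC1, adjusted p = 0.02) and -0.51 ± 0.15 (UQCRFS1, adjusted p = 0.017, edgeR, SE). Both calls were lost without the first LINC00665 library (adjusted p = 0.098 for CYC1 and 0.081 for UQCRFS1) and without the third (0.076 for CYC1 and 0.069 for UQCRFS1), and that of CYC1 also without the first Vector library (0.055) and with the replicate number as a block (0.054). The small subunit UQCRB had 37.6, 48.0 and 35.5 CPM under the LINC00665 label and 89.4, 81.5 and 71.5 CPM under the Vector label (-1.002 ± 0.17, adjusted p = 0.0011). Another small subunit, UQCR10, had 31.3, 43.1 and 35.1 CPM under the LINC00665 label and 71.1, 70.4 and 65.7 CPM under the Vector label (-0.92 ± 0.16, adjusted p = 0.0012, edgeR). Both were below the Vector range in every LINC00665 library. UQCRC1 and UQCRC2, the core proteins related to processing peptidases, had log2 fold changes of 0.22 (adjusted p = 0.26) and 0.14 (adjusted p = 0.53). UQCRHL, a near copy of UQCRH, summed to 32.06 expected counts in the LINC00665 libraries and 4.01 in the Vector libraries and was not tested.

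Among the nuclear-coded subunits of complex IV, COX6A1 and COX6B2 rose. COX6A1, the form of subunit VIa found in most tissues, had 291, 386 and 290 CPM under the LINC00665 label and 156, 174 and 156 CPM under the Vector label, with no overlap (log2 fold change 1.00 ± 0.16, adjusted p = 0.0008, edgeR, SE). Measured per length, at 566 FPKM under the LINC00665 label and 318 FPKM under the Vector label, it had the highest level of any nuclear-coded member under the LINC00665 label, while ATP5F1B had the highest under the Vector label, at 566 FPKM. COX7A2, a small membrane subunit, had 70.3, 86.8 and 68.1 CPM under the LINC00665 label and 124, 115 and 128 CPM under the Vector label. It was lower in every LINC00665 library (-0.71 ± 0.15, adjusted p = 0.0034), as were NDUFA4 (-0.61, adjusted p = 0.0083) and COX6C (-0.50, adjusted p = 0.029, edgeR). COX6C did not pass without the first (adjusted p = 0.13) or the third (adjusted p = 0.10) LINC00665 library or without the first Vector library (adjusted p = 0.073). COX4I1, the largest nuclear-coded subunit, had 207, 261 and 217 CPM under the LINC00665 label and 265, 273 and 259 CPM under the Vector label, with an adjusted p of 0.21. COX8A, at 162, 145 and 152 CPM under the LINC00665 label and 164, 134 and 44.7 CPM under the Vector label, and COX7A2L, a supercomplex factor, at 92.0, 70.6 and 87.9 CPM under the LINC00665 label and 84.0, 104 and 47.1 CPM under the Vector label, were low in the same Vector library as NDUFB11. Neither passed, and without that library the log2 fold change was 0.04 for COX8A, against 0.42 with it, and -0.18 for COX7A2L, against 0.09 with it.

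COX6B2 was the 1 tested member with no counts under the Vector label. This testis-associated form of subunit VIb had 14.4, 18.3 and 15.2 CPM in the LINC00665 libraries, and 0 counts in each Vector library. Its 939.92 expected counts put it at least 313-fold higher under the LINC00665 label. This bound sets the Vector group to 3 counts over its 3 libraries and covers counting error only. COX6B2 passed the filter on low counts through the LINC00665 libraries, so its call (fitted adjusted p = 6.2e-06, edgeR) is a description. COX6B1, the form of the same subunit found in most tissues, had 81.2, 96.3 and 77.5 CPM under the LINC00665 label and 89.6, 94.7 and 97.4 CPM under the Vector label, with overlapping groups and an adjusted p of 0.40. Per length, COX6B2 was 5.13, 5.40 and 5.56% of the FPKM of the pair under the LINC00665 label. COX6B2 overlaps an unnamed locus on the same strand, which had 12.08 expected counts under the LINC00665 label and 0 under the Vector label. The other genes listed as restricted isoforms stayed below the filter. COX4I2, COX6A2, COX7A1 and ATP5MGL had 0 counts in all 6 libraries, COX7B2 and COX8C had 1 count each, both under the LINC00665 label, and NDUFA4L2 had 5, 7 and 7 counts under the LINC00665 label and 1, 6 and 9 under the Vector label.

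In complex V the c ring, peripheral stalk, F1 head and small membrane subunits each had members that fell. The inhibitor ATP5IF1 fell too, while the gamma, delta and epsilon subunits did not pass. In the membrane ring of c subunits, which turns as protons pass, ATP5MC1, ATP5MC2 and ATP5MC3 code for the same mature protein with different import signals. ATP5MC3 had 66.3, 77.5 and 64.1 CPM under the LINC00665 label and 158, 149 and 129 CPM under the Vector label. ATP5MC2 had 39.4, 48.2 and 39.9 CPM under the LINC00665 label and 76.3, 86.8 and 82.1 CPM under the Vector label. ATP5MC1 had 32.8, 43.2 and 35.1 CPM under the LINC00665 label and 64.3, 63.7 and 76.3 CPM under the Vector label. The groups were apart in all of them, with log2 fold changes of -1.07 ± 0.15 (ATP5MC3, adjusted p = 0.00038), -0.94 ± 0.15 (ATP5MC2, adjusted p = 0.00064) and -0.88 ± 0.16 (ATP5MC1, adjusted p = 0.0017, edgeR, SE). The 4 genes of the peripheral stalk, which keeps the head from turning, were lower too, at -0.83 (ATP5PB, adjusted p = 0.0016), -0.73 (ATP5PD, adjusted p = 0.0054), -0.49 (ATP5PO, adjusted p = 0.024) and -0.49 (ATP5PF, adjusted p = 0.038). Both calls at -0.49 were lost without the first LINC00665 library (adjusted p = 0.10 for ATP5PO and 0.15 for ATP5PF), without the third (0.089 for ATP5PO and 0.13 for ATP5PF) and without the first Vector library (0.062 for ATP5PO and 0.11 for ATP5PF), and that of ATP5PF also without the third Vector library (0.051), with the replicate number as a block (0.075) and with only genes of at least 1 CPM in both groups (0.069).

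Of the F1 head, where ATP is made, the large subunits fell and the small ones did not pass. ATP5F1B, the catalytic beta subunit, had 573, 670 and 564 CPM under the LINC00665 label and 953, 823 and 1012 CPM under the Vector label. ATP5F1A, the alpha subunit, had 329, 328 and 332 CPM under the LINC00665 label and 525, 520 and 472 CPM under the Vector label. Neither pair of groups overlapped, with log2 fold changes of -0.63 ± 0.14 (ATP5F1B, adjusted p = 0.0053) and -0.62 ± 0.12 (ATP5F1A, adjusted p = 0.0027, edgeR, SE). The gamma, delta and epsilon subunits ATP5F1C, ATP5F1D and ATP5F1E had log2 fold changes of -0.17, -0.01 and -0.12. ATP5ME, a small membrane subunit at the dimer interface, had 13.02, 14.4 and 9.05 CPM under the LINC00665 label and 37.3, 28.4 and 33.0 CPM under the Vector label, and at -1.44 ± 0.21 (adjusted p = 0.0005) it had the lowest log2 fold change of complex V. ATP5IF1, which inhibits the enzyme when it runs in reverse, had 31.0, 41.5 and 29.2 CPM under the LINC00665 label and 73.2, 59.6 and 70.4 CPM under the Vector label (-0.999 ± 0.18, adjusted p = 0.0015, edgeR). Both genes' groups were apart. Of the other 4 small membrane subunits, ATP5MK (-0.76, adjusted p = 0.0081) and ATP5MF (-0.63, adjusted p = 0.019) were lower, while ATP5MG (0.06) and ATP5MJ (0.07) did not pass. ATP5MF did not pass without the first (adjusted p = 0.073) or the third (adjusted p = 0.068) LINC00665 library.

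Promoter windows of RefSeq (GRCh38.p14), from 250 bases before to 50 after each start, were found for 70 member genes, in 83 windows. They were searched on both strands for the letters of motifs known from promoters of respiratory genes. The NRF1 motif, searched as GCGCA and GCGC with any base between them, stood in 20.5% of the members' windows and 5.78% of all 35116 windows, the ETS motif CCGGAAG, bound by GABPA, in 26.5% and 10.3%, and the YY1 motif AAGATGGC in 15.7% and 2.89%. The CCAAT box stood in 34.9% of the members' windows and 34.6% of all, the GC box GGGCGG in 62.7% and 44.95%, and the E box CACGTG in 8.43% and 7.26%. Of the tested genes with a window, the NRF1 letters were found in 5 of the 29 that were lower, 11 of the 33 that did not pass and 0 of the 5 that were higher. The ETS letters were found in 8, 12 and 1 of the same sets, and the YY1 letters in 8, 3 and 1. The sequences of 4 windows are given for the isoform with no counts under the Vector label and its common counterpart (COX6B2 at chr19:55354670-55354969, minus strand, and COX6B1 at chr19:35648073-35648372, plus strand), for the complex V gene with the lowest fold change (ATP5ME at chr4:674227-674526, minus strand) and for a member that did not pass (SDHA at chr5:218070-218369, plus strand). Capitals mark NRF1, ETS and CCAAT letters on either strand. The windows hold 31, 16, 37 and 41 CpG sites, where the median window has 14.
COX6B2: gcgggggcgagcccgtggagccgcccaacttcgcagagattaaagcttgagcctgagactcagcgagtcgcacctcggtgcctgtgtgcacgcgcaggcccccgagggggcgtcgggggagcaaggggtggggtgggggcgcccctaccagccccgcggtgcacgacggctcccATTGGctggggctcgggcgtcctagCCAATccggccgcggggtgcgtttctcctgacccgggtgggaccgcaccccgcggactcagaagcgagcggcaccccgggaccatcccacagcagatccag
COX6B1: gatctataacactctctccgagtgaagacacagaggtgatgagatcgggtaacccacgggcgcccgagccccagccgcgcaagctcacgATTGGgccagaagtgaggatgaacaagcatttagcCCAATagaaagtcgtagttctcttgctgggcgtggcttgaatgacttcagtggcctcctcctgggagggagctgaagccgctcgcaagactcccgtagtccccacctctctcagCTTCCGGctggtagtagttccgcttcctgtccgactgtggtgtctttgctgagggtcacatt
ATP5ME: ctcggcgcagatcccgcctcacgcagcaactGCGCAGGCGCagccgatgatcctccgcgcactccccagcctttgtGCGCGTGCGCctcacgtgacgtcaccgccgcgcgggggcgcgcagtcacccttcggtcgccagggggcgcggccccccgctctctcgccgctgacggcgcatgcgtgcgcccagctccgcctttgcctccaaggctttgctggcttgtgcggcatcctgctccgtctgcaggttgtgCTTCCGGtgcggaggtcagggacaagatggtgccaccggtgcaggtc
SDHA: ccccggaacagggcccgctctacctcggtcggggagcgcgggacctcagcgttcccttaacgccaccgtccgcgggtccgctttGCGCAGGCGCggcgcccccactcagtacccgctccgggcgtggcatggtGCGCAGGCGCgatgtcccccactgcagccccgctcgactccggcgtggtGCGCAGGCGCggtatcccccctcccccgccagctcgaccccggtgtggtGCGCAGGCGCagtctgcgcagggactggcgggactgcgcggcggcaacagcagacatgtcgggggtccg
In these windows COX6B2 and COX6B1 each hold 2 CCAAT boxes, and COX6B1 also has 1 ETS match near its 3′ end. ATP5ME holds 2 NRF1 matches and 1 ETS match, and SDHA holds 4 NRF1 matches that share the same letters. A match is a description of the letters and not a site of binding. GC content was taken from the longest annotated transcript of each gene, which need not be the one expressed. Across the 82 nuclear-coded members tested, the log2 fold change and this GC content had a Spearman correlation of 0.34. Across all 13518 genes tested with a transcript sequence it was 0.18. Both are values across genes of the same 6 libraries. The median GC content was 58.2% in the 5 higher members, 47.2% in the 41 lower and 50.1% in the 36 that did not pass.

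Together the 13 mitochondrial mRNAs took 5.16, 4.20 and 5.25% of all counts in the LINC00665 libraries and 5.41, 6.53 and 5.52% in the Vector libraries. The groups were apart and averaged 4.87 ± 0.579% under the LINC00665 label and 5.82 ± 0.617% under the Vector label (SD, n = 3 each). The difference of -0.95 percentage points was -0.62 without the second LINC00665 library and -0.59 without the second Vector library. On CPM, whose library totals carry an edgeR composition factor, the groups overlapped, at 51451 ± 4902 CPM under the LINC00665 label and 55101 ± 6624 CPM under the Vector label. The nuclear-coded members took 0.592 ± 0.0457% of all counts under the LINC00665 label and 0.836 ± 0.0274% under the Vector label. Measured per length, the median mitochondrial mRNA stood at 2304 FPKM under the LINC00665 label and 3598 FPKM under the Vector label, while the median nuclear-coded member, restricted isoforms and readthrough loci left out, stood at 66.8 FPKM under the LINC00665 label and 93.0 FPKM under the Vector label. MT-CO1, the subunit of complex IV that holds the site of oxygen reduction, had the highest level of the 13, at 11874 FPKM under the LINC00665 label and 12899 FPKM under the Vector label. MT-ATP8, a small membrane subunit of complex V, had the lowest, at 417 FPKM under the LINC00665 label and 655 FPKM under the Vector label.

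The mitochondrial mRNAs did not move together. MT-CO2, the complex IV subunit that takes electrons from cytochrome c (M:7586-8269, plus strand), had 5993, 7386 and 6218 CPM under the LINC00665 label and 3939, 4973 and 4260 CPM under the Vector label. MT-ND4, a proton-pumping subunit of complex I, had 8697, 8458 and 8601 CPM under the LINC00665 label and 5759, 6893 and 5708 CPM under the Vector label. These were the mRNAs that rose, with no overlap of groups, by 0.57 ± 0.15 (MT-CO2, adjusted p = 0.0091) and 0.49 ± 0.13 (MT-ND4, adjusted p = 0.0099) on the log2 scale (SE by edgeR).

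MT-CYB, cytochrome b, the mitochondrial-coded subunit of complex III (M:14747-15887, plus strand), had 1554, 1244 and 1703 CPM under the LINC00665 label and 2963, 3887 and 3163 CPM under the Vector label. MT-ND5, a proton-pumping subunit of complex I, had 2050, 995 and 2072 CPM under the LINC00665 label and 3321, 4539 and 3361 CPM under the Vector label. MT-ND6, the 1 mRNA of the set that lies on the minus strand (M:14149-14673), had 298, 141 and 314 CPM under the LINC00665 label and 476, 719 and 469 CPM under the Vector label. These neighbours at the end of the map were lower in every LINC00665 library, with log2 fold changes of -1.15 ± 0.17 (MT-CYB, adjusted p = 0.00051), -1.13 ± 0.28 (MT-ND5, adjusted p = 0.008) and -1.14 ± 0.32 (MT-ND6, adjusted p = 0.013, edgeR, SE). MT-ND6 lies between the other genes, which are on the plus strand. Whether strand was used in counting is not given, so its counts may include plus-strand reads. The second LINC00665 library stood apart, with the lowest MT-ND1, MT-ND5, MT-ND6 and MT-CYB and the highest MT-CO2 and MT-ATP6. Without it the log2 fold changes were -1.05 for MT-CYB (adjusted p = 0.0017), -0.88 for MT-ND5 (adjusted p = 0.0052), -0.87 for MT-ND6 (adjusted p = 0.016) and 0.46 for MT-CO2 (adjusted p = 0.021).

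MT-CO3, the third core subunit of complex IV, had 5068, 4553 and 5259 CPM under the LINC00665 label and 6702, 8964 and 6898 CPM under the Vector label (-0.60 ± 0.15, adjusted p = 0.0087). MT-ND2, of the membrane arm of complex I, had 2805, 2097 and 2701 CPM under the LINC00665 label and 3415, 3720 and 3507 CPM under the Vector label (-0.48 ± 0.15, adjusted p = 0.019). The groups were apart in both, as in MT-ATP8 (-0.49 ± 0.17, adjusted p = 0.035), whose sequence overlaps that of MT-ATP6 by 46 bases and whose reads may be shared with it. The MT-ATP8 call was lost without the first (adjusted p = 0.073) or the third (0.12) LINC00665 library and without the first (0.086) or second (0.056) Vector library. MT-CO1 had 21610, 15358 and 20980 CPM under the LINC00665 label and 17262, 21224 and 18000 CPM under the Vector label, and MT-ATP6, the complex V subunit that forms the proton path, had 2753, 3383 and 2741 CPM under the LINC00665 label and 2717, 3200 and 2722 CPM under the Vector label. Both overlapped (adjusted p = 0.86 and 0.83), as did MT-ND4L (adjusted p = 1). MT-ND1 (-0.49, adjusted p = 0.11) and MT-ND3 (-0.35, adjusted p = 0.053, and 0.027 without the second Vector library) were below the Vector range in every LINC00665 library but did not pass. Among all genes tested, 70.2% had groups that did not overlap, 32.3% with every LINC00665 library below every Vector library, as in 8 of the 13 mitochondrial mRNAs, and 37.9% with every one above, as in 2 of the 13.

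Set against each other within a library, which removes the scaling between libraries, these mRNAs differed in make-up. The count of MT-CO2 over that of MT-CYB was 3.86, 5.94 and 3.65 in the LINC00665 libraries and 1.33, 1.28 and 1.35 in the Vector libraries. MT-ND4 over MT-ND5, which lie next to each other on the same strand with 199 bases between them, was 4.24, 8.50 and 4.15 under the LINC00665 label and 1.73, 1.52 and 1.70 under the Vector label. MT-CO1 over MT-ND1 was 7.57, 10.6 and 7.66 under the LINC00665 label and 5.61, 5.72 and 5.75 under the Vector label. In all 3 ratios the Vector libraries were close together, the LINC00665 libraries lay above them, and the second LINC00665 library was the highest. In MT-CO2 over MT-CYB and MT-ND4 over MT-ND5, both genes already had groups apart in opposite directions. The separation of those ratios is therefore a description. As a share of the counts of all 13 mRNAs, MT-ND4 made up 16.8 ± 1.46% under the LINC00665 label and 11.1 ± 0.24% under the Vector label, MT-CO2 made up 12.9 ± 2.83% under the LINC00665 label and 7.97 ± 0.20% under the Vector label, and MT-CYB made up 2.91 ± 0.22% under the LINC00665 label and 6.05 ± 0.17% under the Vector label (SD, n = 3 each). A ratio within a library shows unequal change and not which of its genes changed.

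**Figure D4:**
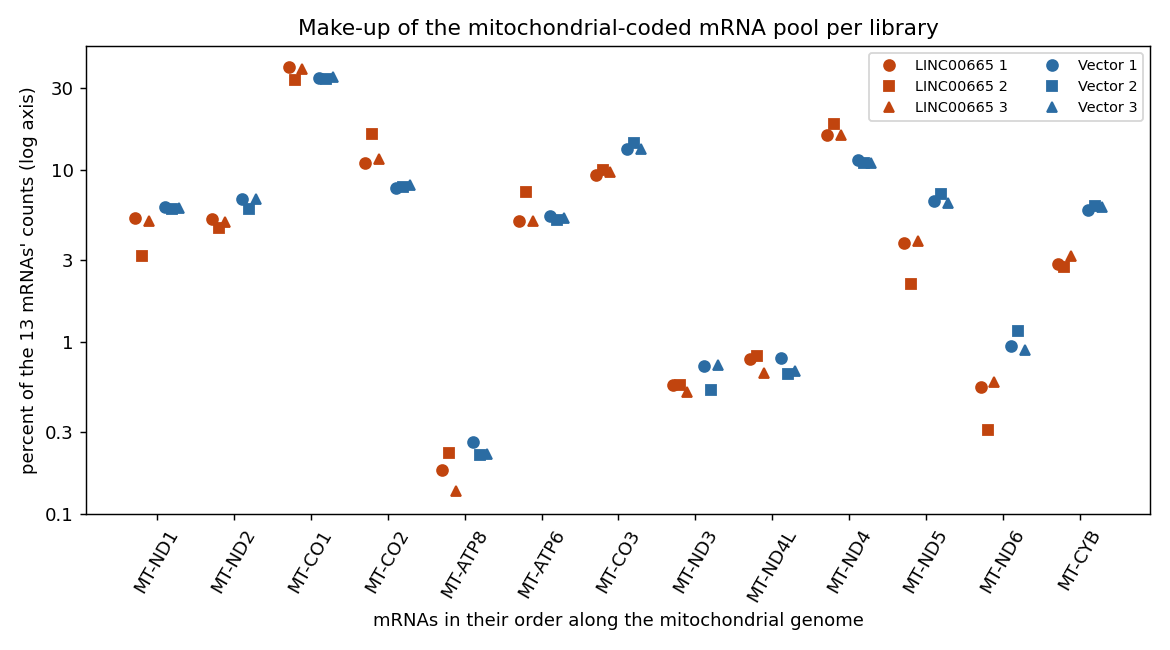
The 13 mitochondrial mRNAs stand on the x axis in their order along the mitochondrial genome, with each library's share of their summed counts, in percent on a log axis. MT-CO2 and MT-ND4 hold larger shares in the LINC00665 libraries and MT-CO3, MT-ND5, MT-ND6 and MT-CYB smaller ones, with the square of LINC00665 2 apart from its group in MT-ND1, MT-CO2, MT-ATP6, MT-ND5 and MT-ND6.

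The genes that build, feed and regulate the chain were counted in the same fit, where 29.3% of all genes were lower and 34.2% higher. Of the assembly factors of complex III, 5 of 6 were lower and 1 higher. LYRM7, which hands the Rieske protein to the complex, had 4.98, 4.26 and 6.78 CPM under the LINC00665 label and 29.8, 41.3 and 29.3 CPM under the Vector label (-2.65 ± 0.24, adjusted p = 3.3e-05). UQCC3, which stabilises cytochrome b, rose, with 17.8, 22.9 and 20.6 CPM under the LINC00665 label and 6.71, 7.11 and 6.42 CPM under the Vector label (1.598 ± 0.18, adjusted p = 9.6e-05, edgeR). Of 24 assembly factors of complex IV, 11 were lower and 2 higher. COX20, a chaperone of the MT-CO2 protein, had 10.1, 9.88 and 9.58 CPM under the LINC00665 label and 63.1, 79.7 and 79.3 CPM under the Vector label, below the Vector range in every library (-2.91 ± 0.16, adjusted p = 2.1e-06), while COX19, of the copper relay, rose by 1.63 (adjusted p = 8.6e-05). The 18 assembly factors of complex I had 5 lower (27.8%, near the share over all genes) and 2 higher, NDUFAF4 (-1.72, adjusted p = 0.00018) and ECSIT (1.27, adjusted p = 0.00017) having the smallest p. Those of complex II had 1 of 4 lower (SDHAF2, -0.55) and 1 higher (SDHAF1, 0.73), both at an adjusted p of 0.02. SDHAF2 did not pass without the first or the third LINC00665 library, nor SDHAF1 without the second LINC00665 or first Vector library (adjusted p of at most 0.094 for SDHAF2 and 0.077 for SDHAF1). Those of complex V had 2 of 5 lower, ATPAF1 (-0.82, adjusted p = 0.0023) and FMC1 (-1.31, adjusted p = 0.0088), and 0 higher (0 also at an unadjusted p under 0.05 and by DESeq2).

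Of 18 genes for electron carriers and ubiquinone synthesis, 6 were lower (33.3%, near the 29.3% over all genes) and 1 higher, with PDSS1 (-1.15, adjusted p = 0.001) and COQ3 (-1.04, adjusted p = 0.0015), enzymes of ubiquinone synthesis, having the smallest p. CYCS, cytochrome c, did not pass (0.08, adjusted p = 0.71). NDUFAB1, the acyl carrier protein that is also a subunit of complex I, passed narrowly (-0.43, adjusted p = 0.046) and did not pass in 9 alternatives, 4 of which leave out 1 library (adjusted p up to 0.18). Of the citric acid cycle, 3 of 14 were lower (21.4%, under the share over all genes) and 2 higher. IDH2, the mitochondrial NADP-dependent isocitrate dehydrogenase, had 268, 318 and 276 CPM under the LINC00665 label and 55.8, 73.9 and 60.7 CPM under the Vector label (2.18 ± 0.16, adjusted p = 1.1e-05). Among 16 general mitochondrial proteins (pores, import, chaperones, carriers), 8 were lower and 2 higher, with a median of -0.60, beside -0.43 for the nuclear-coded subunits. The lower ones included SLC25A4, an ADP/ATP carrier (-1.45, adjusted p = 0.00013), and PHB, prohibitin (-0.91, adjusted p = 0.00051). The other ADP/ATP carriers, SLC25A5 (0.45, adjusted p = 0.03) and SLC25A6 (0.69, adjusted p = 0.0043, edgeR), were the genes of this list that rose.

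Of 12 nuclear regulators tested, 7 were higher (58.3%, against 34.2% of all genes) and 2 lower (16.7%, against 29.3% of all genes). PPARGC1A and ESRRG are among the 7 and passed the filter on low counts through the LINC00665 libraries, so that count is a description. PPARGC1A, the coactivator that drives mitochondrial biogenesis, had 10.4, 9.93 and 13.8 CPM under the LINC00665 label and 0, 0.0555 and 0 CPM under the Vector label. Its 669 counts against 1 give a ratio of 665, with an exact 95% binomial interval of 119 to 26319 that covers counting error only (adjusted p = 3e-06, edgeR). ESRRA, a nuclear receptor that PPARGC1A coactivates, had 67.9, 77.8 and 70.8 CPM under the LINC00665 label and 16.6, 20.9 and 23.3 CPM under the Vector label, with no overlap (1.83 ± 0.17, adjusted p = 3.8e-05). NRF1 was higher (0.50 ± 0.18, adjusted p = 0.039), a call lost in 8 alternatives (adjusted p up to 0.29), 5 of which leave out 1 library, and GABPA, the ETS factor, was lower (-0.73 ± 0.18, adjusted p = 0.0068). TFAM, which packages mitochondrial DNA and starts its transcription, had 26.5, 27.3 and 29.6 CPM under the LINC00665 label and 67.6, 52.3 and 76.2 CPM under the Vector label, lower in every library (-1.23 ± 0.17, adjusted p = 0.00039, edgeR). TFAM belongs to the 11 genes of mitochondrial DNA replication and upkeep, of which 5 were lower (45.5%) and 2 higher (18.2%), led by TK2 (-2.81, adjusted p = 3.5e-05) and RRM2B (-2.001, adjusted p = 0.00013, edgeR), which supply nucleotides. Of 21 genes for mitochondrial transcription and RNA handling, 8 were lower (38.1%, beside 29.3% of all genes) and 3 higher (14.3%, beside 34.2%), led by the RNA-binding proteins FASTKD2 (-1.72, adjusted p = 2.1e-05) and FASTKD1 (-1.88, adjusted p = 3e-05, edgeR).

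**Figure D5:**
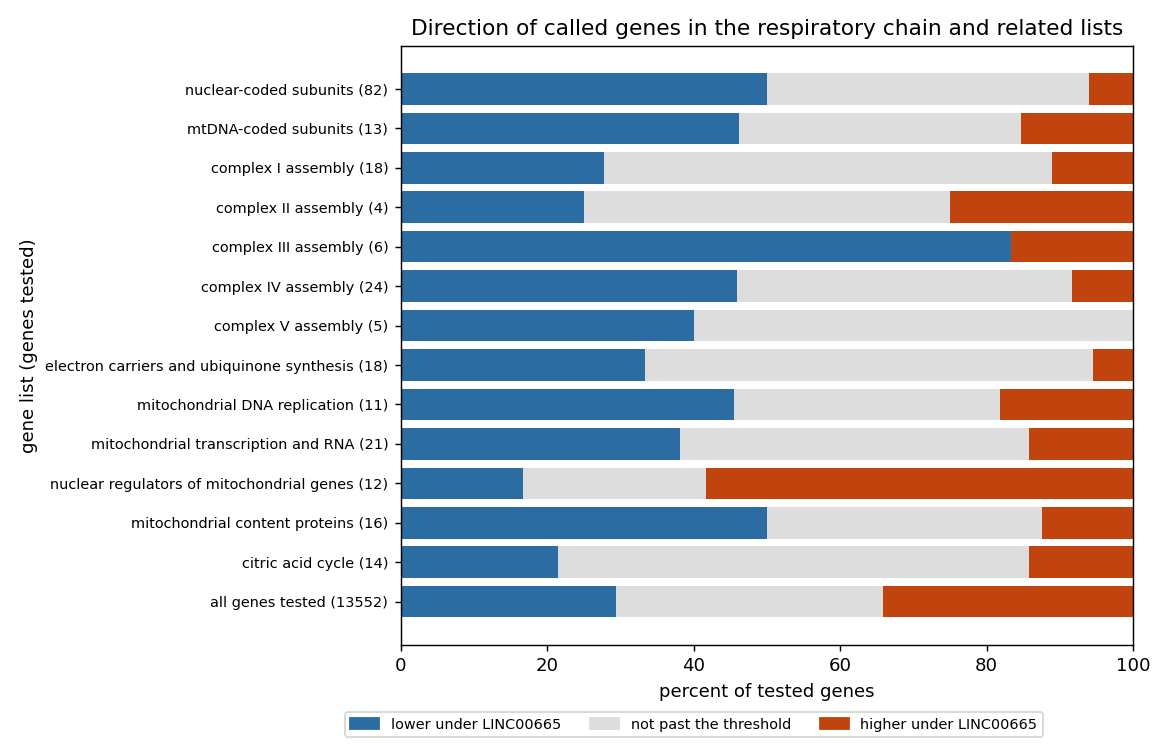
Each bar gives, for a list named at the left with its number of tested genes, the percent of genes lower, not past the threshold and higher under the LINC00665 label at an adjusted p of 0.05. The nuclear-coded subunits have 41 of 82 lower and 6.10% higher, the nuclear regulators have 7 of 12 higher and 2 lower, and all genes tested have 29.3% lower and 34.2% higher.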

How the data were processed

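Total RNA of 6 cultures was made into libraries by the TruSeq RNA method of Illumina, as the labels' protocols state. HISAT2 2.0.4 and the build hg38 are named in the submitters' processing notes, with no role stated, and the sources used here do not give a counting tool, an annotation or whether strand was used. The authors deposited 1 table, which gives for every gene in every library an expected count, not normalised, and an FPKM value normalised by the authors for length and depth, both per the file headers. Between 88.3 and 89.4% of expected counts were whole, 24 nuclear-coded members had values that were not whole in at least 1 library, and 47 members overlap another gene of the table, so their reads may be shared. The readthrough loci NDUFC2-KCTD14 and ATP5MF-PTCD1 share exons with NDUFC2 and ATP5MF.

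Group and replicate number were read from each sample's labels. Expected counts were rounded, low genes were dropped by filterByExpr, library sizes got TMM factors, and the groups were tested with edgeR 4.0.16 (glmQLFit, glmQLFTest) in R 4.3.3 without covariates, LINC00665 over Vector, in the 13552 genes that passed the filter. The adjusted p is Benjamini-Hochberg over these genes, with a threshold of 0.05. Standard errors are the size of the log2 fold change over the square root of F. CPM are the rounded counts per 1000000 of the TMM-scaled totals of the tested genes. FPKM served to compare levels between genes. For a group at 0 the fold is a bound against 3 counts over the group, and intervals and bounds cover counting error only. The design of 3 against 3 libraries allows no exact permutation p under 0.1 for a single value, so sums, shares and ratios are given with their spread and without a p. Positions and transcripts came from GENCODE 29 (GRCh38), where all 103 members were found.

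The members and lists were chosen with earlier results of these data known. Genes were named by rule: all mitochondrial-coded members, the 4 nuclear-coded members of each complex with the smallest p and up to 2 per direction with the largest change among those past the threshold, all restricted isoforms, the 2 genes of each other list with the smallest p, and TFAM, PPARGC1A, NRF1, ESRRA, GABPA, CYCS and NDUFAB1. Any further gene was picked with its values in view. Of the members, 1 took part in the fit and the counts and is not reported here by itself. Alternatives were other scalings and filters, DESeq2 1.42.0, limma-trend on log2(FPKM + 1) with limma 3.58.1, a replicate block, stricter thresholds and fits without each library in turn. Libraries of the same label differed beyond counting noise (chi-square over its degrees of freedom 9.85 to 116), so none counts as a duplicate. The 3 libraries that failed the check of the line could not be left out, since no contrast of labels would remain.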

Additional observations from a re-analysis of the deposited data

How the results depend on the processing

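No named gene past the threshold and no median of the members changed sign in any alternative run. Of 972 values of 70 named genes, 935 kept their side of the threshold, 33 in 8 genes no longer passed and 4 in 2 genes (MT-ND1, MT-ND3) newly passed. MT-CO1, MT-ATP6, MT-ND4L and CYCS, none past the threshold, took the other sign in 20 values. Of the 54 members past the threshold, 40 passed in the same direction in all 14 alternative fits. COX6B2 passed in the 13 that test it, which is a description, since it passed the filter through the LINC00665 libraries. At an adjusted p of 0.01 the mitochondrial-coded members lower numbered 3 and not 6. With a fold minimum of 1 on the log2 scale the counts were 5691 over all genes, 1 nuclear-coded member higher and 9 lower, and 0 mitochondrial-coded members higher and 3 lower. Total-count scaling shifted the median of all genes to -0.13, against 0.03, turned the balance over all genes (4174 higher, 4770 lower) and gave medians of -0.59 (nuclear-coded, 5 higher and 48 lower) and -0.64 (mitochondrial-coded), and limma-trend on FPKM gave -0.66 for the mitochondrial-coded members. On FPKM the mitochondrial share differed by -1.84 percentage points, against -0.95 on counts. Leaving out 1 library gave 7458 to 9258 changed genes, 30 to 43 nuclear-coded members lower and 5 to 6 higher, 5 to 6 mitochondrial-coded members lower and 2 higher, medians of -0.54 to -0.36 (nuclear-coded) and -0.53 to -0.31 (mitochondrial-coded), a share difference of -1.15 to -0.59 points and a ratio of nuclear sums of 0.746 to 0.819. The replicate numbers did not pair the libraries: the correlations of same-numbered deviations were 0.25, -0.17 and -0.22, and 1 of 3 LINC00665 libraries correlated best with its own number. With the number as a block 7924 genes changed, against 8611, with 5 nuclear-coded members higher and 39 lower and 2 mitochondrial-coded members higher and 6 lower. The causes were not tested. With 3 libraries a group and 3 of 6 not matching the labelled line, no value here separates the plasmid from the line.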
